A study of Drosophila melanogaster with 8 samples.

Results

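The retinal determination genes are the transcription factors and cofactors that commit cells of the eye-antennal disc to an eye fate. The 9 genes followed here are eyeless (ey), twin of eyeless (toy), eyegone (eyg), sine oculis (so), eyes absent (eya), dachshund (dac), homothorax (hth), teashirt (tsh) and ocelliless (oc, also called orthodenticle). Their members were taken as every probe set annotated to 1 of these symbols alone, which gave 10 of the 18769 probe sets of the Affymetrix Drosophila_2 array and 8 of the 11981 genes that it names alone. toy was read by 3 probe sets and each of 7 other genes by 1. hth was not analysed here, because no probe set carries its symbol in the annotation used. RNA came from heads of adult flies, pooled within each sample, with 4 biological replicates of the wild type (WT) W118 strain and 4 of HEXIM knockdown flies. The knockdown flies carried a UAS-Hexim-RNAi transgene, which makes a hairpin RNA against Hexim, under the GMR-Gal4 driver. Their strain is also labelled W118, and all flies were reared at 29°C. GMR-Gal4 is active in differentiating cells behind the morphogenetic furrow of the eye disc, whereas the RNA measured here also holds brain, antennae, fat body, muscle and cuticle. The WT flies carried neither driver nor transgene, so that the effect of the knockdown cannot be told apart from that of the transgenes. The methods name more than 1 RNAi insertion, and which of them was used for the arrays is not given in the sources used here.

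In the eye disc the Pax6 proteins encoded by toy and ey switch on so and eya, whose products act together as a DNA-binding protein and its coactivator. dac lies further along this network, and the genes of the network also feed back on each other. hth and tsh act mainly ahead of the furrow, in cells that still divide, and oc acts in the ocelli, the head capsule and later in photoreceptors. Several of these genes are also used outside the retina, among them ey and dac in the mushroom body of the brain and dac and hth in the antenna. HEXIM binds and inhibits P-TEFb, the kinase that releases RNA polymerase II into elongation. The arrays therefore ask whether the levels of these genes in the adult head differ after HEXIM knockdown in the differentiating eye.

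Each probe set has 1 log2 level per array, and the array medians lay between 5.41 and 5.55. The Hexim probe set stood at 7.79 to 8.14 in WT and at 7.52 to 7.77 in HEXIM knockdown heads, so that the genotypes did not overlap, but its log2 difference of -0.33 (SE 0.10) did not pass limma over all probe sets (adjusted p = 0.418). WT replicates 1 and 3 and HEXIM knockdown replicate 4 stood apart from the other 5 arrays. In these 3 arrays the middle probe sets of the GAPDH and Act5C control genes minus those at the 3' end gave -3.28 to -2.98 on the log2 scale, against -2.07 to -1.81 in the other 5. This measure falls when the labelled RNA is short. The members and the other gene groups described below are therefore also given for the 5 other arrays, 2 of them WT and 3 HEXIM knockdown.

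ey encodes a Pax6 protein with a paired domain and a homeodomain, and its misexpression in other discs turns on eye development. In WT replicates 1 to 4 its log2 level was 7.52, 7.65, 7.67 and 7.56. It was 7.74, 7.75, 7.85 and 7.60 in HEXIM knockdown replicates 1 to 4. The first 3 knockdown arrays lay above every WT array, and replicate 4 lay inside the WT range. The log2 difference, HEXIM knockdown minus WT, was 0.13 (SE 0.08, 95% interval -0.05 to 0.32), a 1.10-fold level. It did not pass the test (limma, adjusted p = 0.8996; exact two-sided permutation test, p = 0.0857).

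toy, the second Pax6 gene, acts above ey in the embryonic eye primordium. Of its 3 probe sets the brightest read 9.06, 8.87, 9.38 and 9.09 in WT, against 9.10, 9.18, 9.29 and 9.34 in HEXIM knockdown heads. The knockdown arrays were spread within the WT range, none of them above WT replicate 3, the highest array. The probe set of middle level stood at 6.73, 6.52, 6.75 and 6.66 in WT and at 6.78, 6.77, 6.97 and 6.90 in HEXIM knockdown heads. This was the 1 probe set of the 10 in which every knockdown array lay above every WT array. The margin was small, the highest WT array being at 6.75 and the lowest knockdown array at 6.77. The dimmest probe set stood at 4.11, 4.00, 4.14 and 3.84 in WT and at 4.05, 4.08, 4.54 and 4.30 in HEXIM knockdown heads. It lay near the lower quartile of the arrays (3.90 to 4.10), where changes can be compressed, which was not tested here, and its genotypes overlapped. The log2 differences of toy were 0.13 (SE 0.12), 0.19 (SE 0.09) and 0.22 (SE 0.13) from the brightest to the dimmest probe set, or 1.09-fold, 1.14-fold and 1.16-fold. None passed limma over all probe sets, with adjusted p of 1.00, 0.715 and 0.878. The exact two-sided permutation test gave p = 0.314, 0.0286 and 0.200, where 0.0286 is the smallest that 4 arrays against 4 allow. The 3 probe sets read 1 gene, so that they are not 3 separate observations. They also show that the level of a probe set is not the amount of its RNA, since those of toy ran from 4.02 to 9.10 on the log2 scale in WT heads, and levels of different genes are not ranked here.

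eyg encodes a Pax protein that promotes growth of the eye disc. WT arrays read 6.55, 6.002, 6.43 and 6.10 on the log2 scale, and HEXIM knockdown arrays 5.81, 5.92, 5.97 and 6.12. The first 3 knockdown arrays lay below every WT array, while replicate 4 lay above WT replicates 2 and 4. eyg had the most negative log2 difference of the 10 probe sets, at -0.32 (SE 0.14, 95% interval -0.63 to -0.001), a 0.804-fold level. It was also the only 1 with an unadjusted p under 0.05 from limma (p = 0.0493), but its adjusted p was 0.687 (exact two-sided permutation test, p = 0.0857). Of all probe sets, 7.77% differed by at least as much in either direction.

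so encodes the homeodomain protein that carries Eya to DNA. Log2 levels of so were 6.63, 6.93, 6.58 and 6.71 in WT and 6.53, 6.42, 6.64 and 6.06 in HEXIM knockdown heads. The knockdown arrays lay below every WT array except in replicate 3, which lay just above WT replicates 1 and 3. The log2 difference was -0.30 (SE 0.14, 95% interval -0.61 to 0.01), a 0.813-fold level, and did not pass the test (limma, adjusted p = 0.729; exact two-sided permutation test, p = 0.0857). Replicate 4 was the lowest of the 8 arrays, and without it the log2 difference was -0.18.

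eya encodes the coactivator of So, which is also a protein phosphatase. Log2 levels of eya were 8.38, 8.86, 8.45 and 8.83 in WT and 8.60, 8.66, 8.77 and 8.12 in HEXIM knockdown heads. The genotypes overlapped widely, and the spread among WT arrays (SD 0.25, n = 4) was larger than the log2 difference of -0.09 (SE 0.17, 95% interval -0.48 to 0.30; limma, adjusted p = 1.00). dac encodes a nuclear protein of the Ski and Sno family that works with So and Eya. Its log2 levels were 8.03, 8.18, 8.44 and 8.20 in WT and 7.98, 7.997, 8.32 and 8.39 in HEXIM knockdown heads. Replicates 1 and 2 of the knockdown lay below all WT arrays and replicates 3 and 4 above 3 of the 4, so that the log2 difference was -0.04 (SE 0.13, 95% interval -0.33 to 0.25; limma, adjusted p = 1.00).

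tsh encodes a zinc finger protein that can promote or repress eye fate. Log2 levels of tsh were 6.33, 6.58, 6.33 and 6.51 in WT and 6.31, 6.54, 6.70 and 6.32 in HEXIM knockdown heads. Both genotypes covered nearly the same range, and the log2 difference was 0.03 (SE 0.11, 95% interval -0.23 to 0.29; limma, adjusted p = 1.00). oc encodes an Otx homeodomain protein that is needed for the ocelli and, in photoreceptors, for the choice of rhodopsins. Its log2 levels were 6.88, 6.79, 7.31 and 7.03 in WT and 6.82, 6.98, 7.33 and 7.28 in HEXIM knockdown heads. WT replicate 3 stood with knockdown replicates 3 and 4 at the top, and the log2 difference was 0.10 (SE 0.15, 95% interval -0.25 to 0.45; limma, adjusted p = 1.00).

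**Figure D1:**
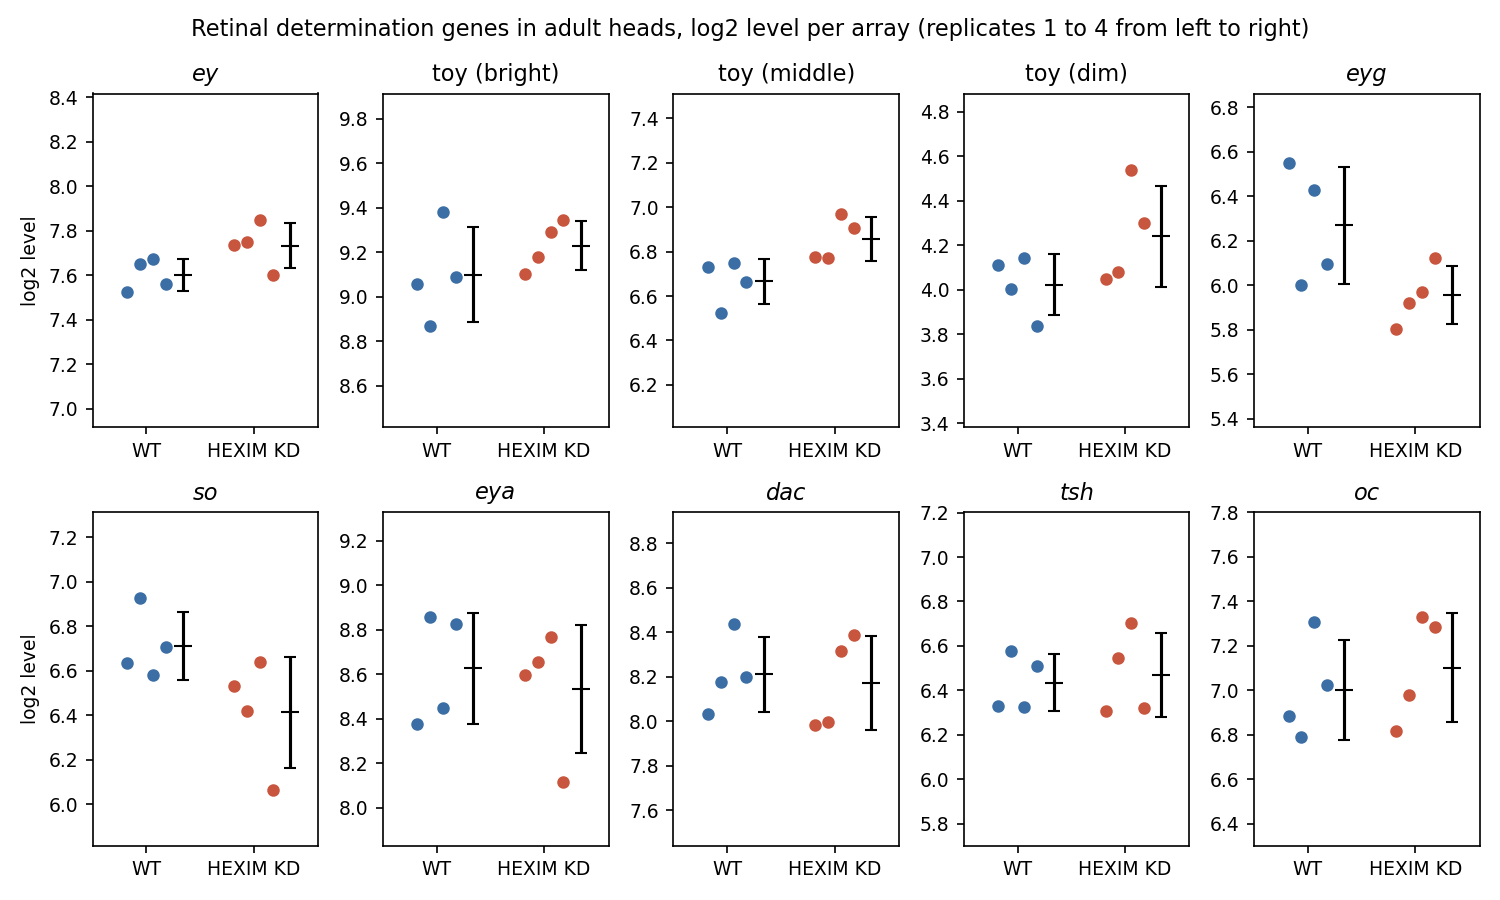
Log2 level of each of the 10 probe sets (vertical axes, each spanning 1.5 log2 units) in every array, for WT (blue) and HEXIM knockdown (HEXIM KD, red), 4 arrays each. Black bars are the mean ± SD, and only for the toy probe set of middle level do all red points lie above all blue points.

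Taking the 10 probe sets together, none passed limma at an adjusted p under 0.05 over all probe sets, where 48 of 18769 (0.256%) did. At an unadjusted p under 0.05 the count was 1 of 10, against 7.24% of all probe sets. The genotypes did not overlap in 1 of 10, against 5.35% of all probe sets (1.99% with the knockdown higher, as in toy, and 3.37% with it lower). The log2 difference was positive in 6 of 10, namely those of ey, toy, tsh and oc, against 44.6% of all probe sets, and negative in those of eyg, so, eya and dac. The median was 0.07 among the 10 and -0.02 over all probe sets, and the median size without sign was 0.13 and 0.09. toy enters these counts and medians with 3 probe sets, all of them positive. By gene, as many were positive as negative. The 95% intervals reached from -0.63 at the lowest (eyg) to 0.51 at the highest (dim toy probe set), or from 0.647-fold to 1.42-fold. In RNA of whole heads, fewer cells of a type and less RNA per cell cannot be told apart.

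**Figure D2:**
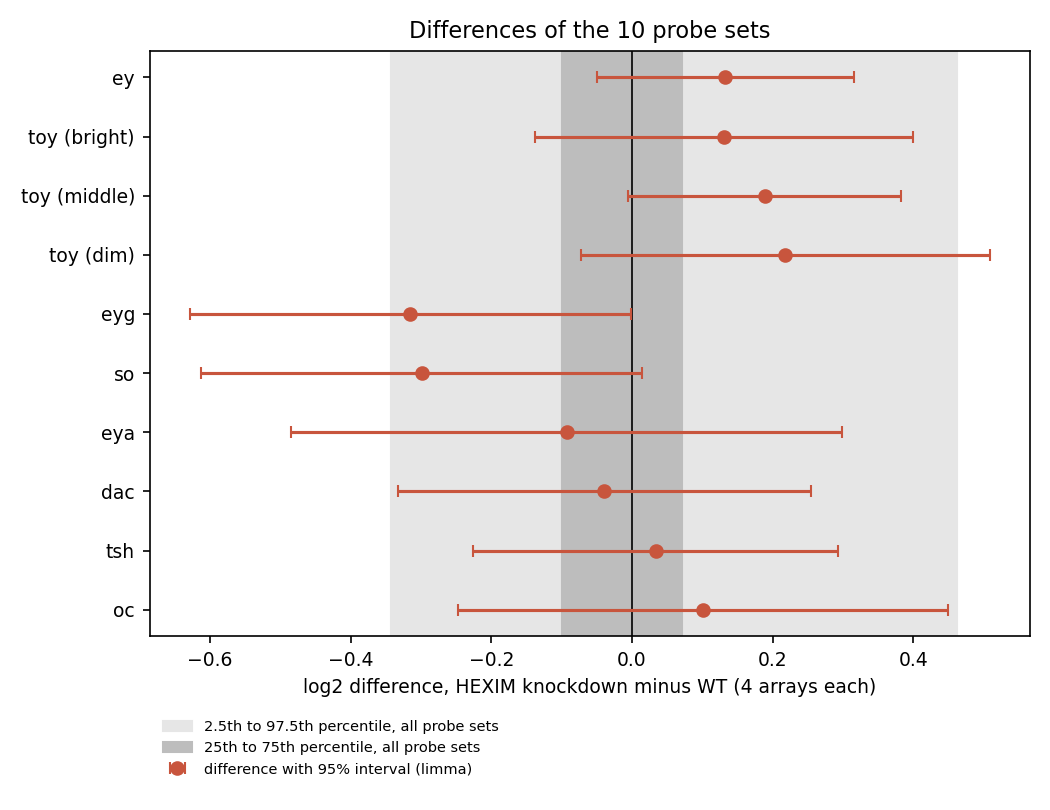
Log2 difference, HEXIM knockdown minus WT, of the 10 probe sets (points) with 95% intervals from limma, over the spread of all 18769 probe sets (dark band, middle 50%, from -0.10 to 0.07; light band, middle 95%, from -0.34 to 0.46). Every point lies inside the light band, and the interval of eyg alone ends below 0, at -0.001.

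The 3 arrays of low middle level were set against the other 5 for each member. eya stood at 8.12 to 8.45 in the 3 arrays of low middle level and at 8.60 to 8.86 in the other 5, without overlap. eyg showed the opposite order, at 6.12 to 6.55 in the 3 and 5.81 to 6.10 in the 5. The 3 arrays did not overlap with the other 5 in these 2 of the 10 probe sets, against 32.6% of all probe sets, and overlapped with them in the other 8. tsh was almost the same in the 3 arrays (6.32 to 6.33) and had a mean of 6.53 in the others. dac, oc and the bright toy probe set had higher means in the 3 arrays by 0.15 to 0.17, but WT replicate 1 was not among their high arrays and HEXIM knockdown replicate 3 was.

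**Figure D3:**
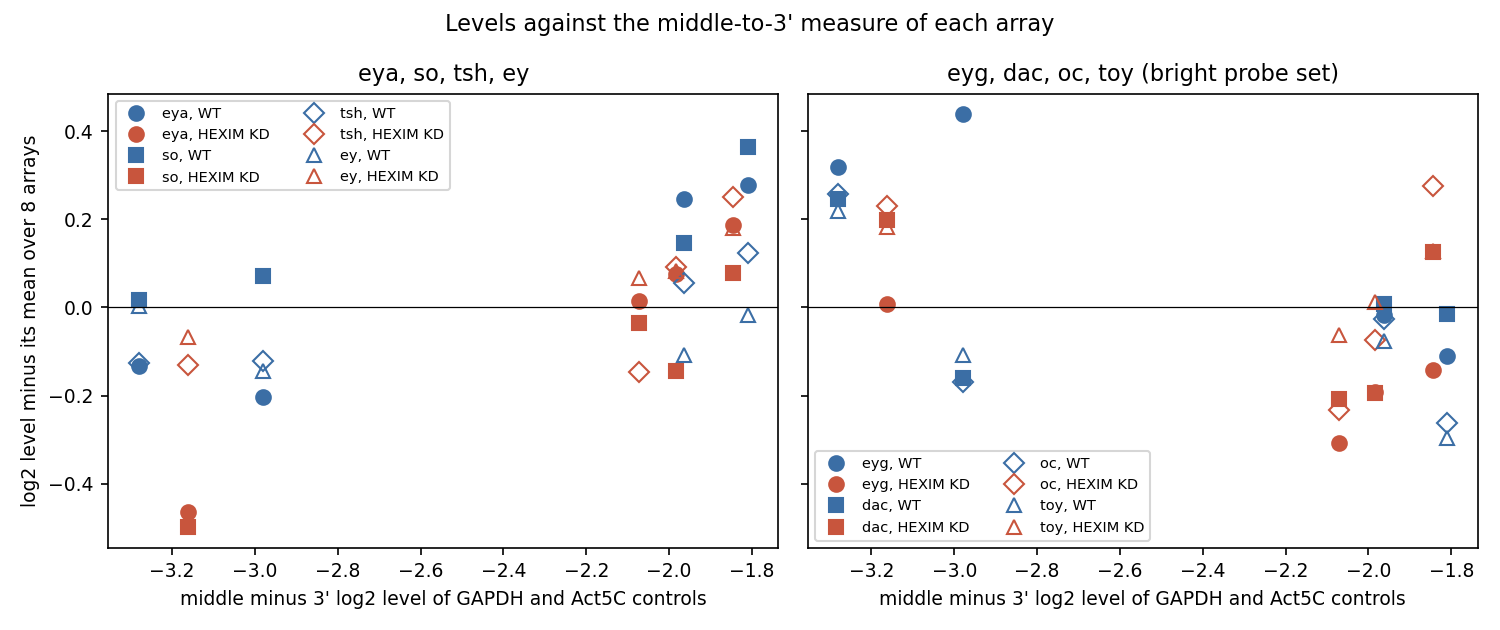
Log2 level of 1 probe set per gene, minus its mean over the 8 arrays (vertical axis), against the middle minus 3' log2 level of the GAPDH and Act5C control genes (horizontal axis), for WT (blue) and HEXIM knockdown (HEXIM KD, red) arrays. The 3 arrays between -3.28 and -2.98 are low in eya and high in eyg.

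Within the 5 arrays of higher middle level, 7 of the 10 probe sets separated the 2 WT from the 3 knockdown arrays, against 26.6% of all probe sets. The 3 toy probe sets among these 7 read the same gene. ey and all 3 probe sets of toy were higher in the knockdown arrays, with log2 differences of 0.17 for ey and 0.21, 0.25 and 0.30 for toy from the brightest to the dimmest. eyg, so and eya were lower, at -0.15, -0.29 and -0.17. dac, tsh and oc overlapped, at -0.09, -0.02 and 0.14. None passed limma in this fit (adjusted p from 0.573 to 0.989), in which 3 probe sets of all were called. Among the 3 arrays of low middle level the single knockdown array lay below both WT arrays for so (6.06 against a mean of 6.61), eya (8.12 against 8.41) and eyg (6.12 against 6.49). It lay above both for the middle and dim toy probe sets, by 0.16 and 0.17, while ey was at 7.60 against a mean of 7.60. eya therefore had a more negative difference within each set of arrays than over all 8.

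A fit with the middle minus 3' measure as a covariate gave the same directions for all of these genes. so had the lowest p, with a log2 difference of -0.36 (SE 0.09, unadjusted p = 0.00265, adjusted p = 0.123). eyg, the middle toy probe set and eya followed at -0.25 (SE 0.09, adjusted p = 0.287), 0.21 (SE 0.08, adjusted p = 0.319) and -0.19 (SE 0.07, adjusted p = 0.346). In this fit 4 of the 10 probe sets had an unadjusted p under 0.05, against 12.1% of all probe sets, and none passed after adjustment, against 0.597%. Array weights, which gave HEXIM knockdown replicate 2 a weight of 9.03, brought so to an adjusted p of 0.101, the lowest of any gene of the network under the alternatives tried.

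Other genes that act with the network were read from a list of 17 partners, of which 11 had a probe set of their own name. None passed limma over all probe sets, 1 had an unadjusted p under 0.05, and none separated the genotypes. Of the 11, 10 had a positive log2 difference, against 44.6% of all probe sets, with a median of 0.10 against -0.02 over all probe sets. The smallest of the 10 were those of tio (0.005) and the partner CtBP (0.005). In the 5 arrays of higher middle level 8 of the 11 were positive (median 0.12) and 4 separated the genotypes, against 26.6% of all probe sets, with none past the test. dan, which encodes a nuclear protein that works with Ey, had a level of 6.53 ± 0.16 in WT heads and of 6.76 ± 0.10 after HEXIM knockdown (SD, n = 4 each), with a log2 difference of 0.24 (SE 0.10, adjusted p = 0.677). Its paralogue danr, which starts with 1 protein-coding gene between them in the RefSeq annotation, had 0.10 (SE 0.12, adjusted p = 1.00). Abl, a tyrosine kinase that acts on Eya, had 0.19 (SE 0.13, adjusted p = 0.937). yki, the coactivator of the Hippo pathway, had 0.14 (SE 0.11, adjusted p = 0.986) but -0.01 in the 5 arrays, and Optix, a relative of so in the eye, had 0.11 (SE 0.09, adjusted p = 0.996). tio, the paralogue of tsh, lay at 3.67 in WT and 3.68 in HEXIM knockdown heads, below the lower quartile of the arrays. toe, the neighbour and paralogue of eyg, and exd, which encodes the partner of Hth, were not analysed here, for want of a probe set of that name.

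Of 12 later eye genes, which act in photoreceptor and cone cell fate, 10 were measured, 3 of them with a positive and 7 with a negative log2 difference (median -0.03). No later gene passed limma. In the 5 arrays 5 of the 10 were positive (median -0.003). There 4 separated the genotypes, Pph13 and lz among them, against 26.6% of all probe sets. Pph13, a homeodomain gene that works beside oc in photoreceptors, separated the genotypes over all 8 arrays, with 7.65 ± 0.08 in WT and 7.98 ± 0.12 in the knockdown (SD, n = 4 each; limma, adjusted p = 0.292). It was the only 1 of the 10 to do so, against 5.35% of all probe sets. lz, a Runx gene of cone and pigment cells, had 6.16 ± 0.14 and 5.86 ± 0.29 (SD, n = 4 each), a log2 difference of -0.30 (SE 0.15, adjusted p = 0.777). gl, whose product Glass binds the sites from which the GMR driver was built, had -0.12 (SE 0.11, adjusted p = 1.00). ato, the proneural gene that So and Ey switch on, had -0.03 (SE 0.12, adjusted p = 1.00).

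**Figure D4:**
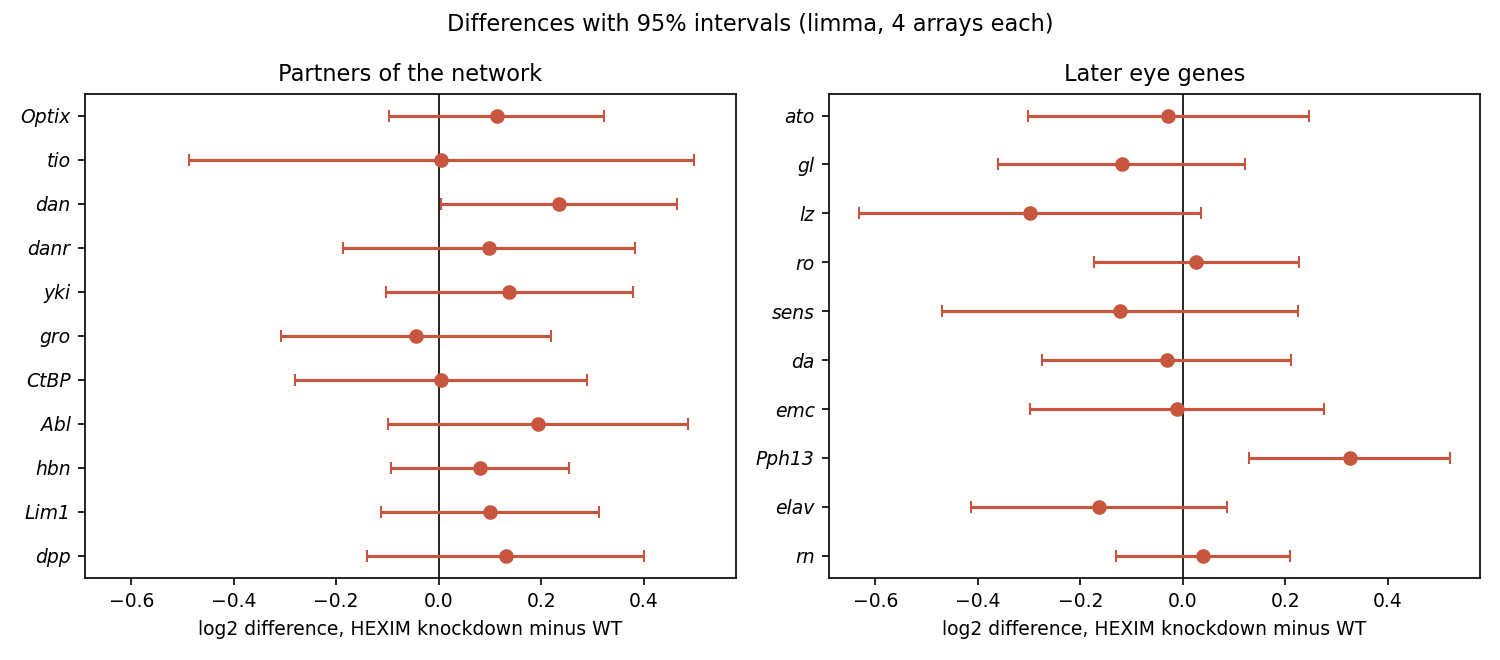
Log2 difference, HEXIM knockdown minus WT (4 arrays each), with 95% intervals from limma, for the 11 measured partners of the network (left) and the 10 measured later eye genes (right). Of the partners, 10 of 11 points lie above 0, and of the later genes the interval of Pph13 alone lies above 0.

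Markers of the eye were present in these heads, and none of those measured differed past the test. The rhodopsin genes ninaE, Rh2, Rh3, Rh4, Rh5 and Rh6 had no probe set of their own name, nor had norpA, ninaC and ninaA. The same held for the pigment genes w, v, cho and Punch, so that these genes were not analysed here. Of 13 measured photoreceptor genes, 11 had a negative log2 difference (median -0.10, from -0.34 to 0.03), where 44.6% of all probe sets had a positive one. trpl alone separated the genotypes, with the knockdown lower, as in 3.37% of all probe sets. In the 5 arrays 12 of the 13 were negative, with a median of -0.18, and 5 separated the genotypes, against 26.6% of all probe sets. The mean level of the photoreceptor list ran from 11.8 to 12.1 in WT and from 11.7 to 11.9 in HEXIM knockdown arrays. Of 6 measured pigment cell genes, 3 had a negative log2 difference, namely bw (-0.70), se (-0.88) and pr (-0.57), and the genotypes did not overlap in these, against 3.37% of all probe sets in that direction. The other 3 were positive, namely st (0.39, with 3 of 4 knockdown arrays above every WT array), ry (0.06) and cn (0.06). All 6 kept these directions in the 5 arrays. The mean level of this list was 8.48 to 8.67 in WT and 8.17 to 8.40 in HEXIM knockdown arrays. All 6 measured fat body genes had a positive log2 difference (median 0.92, none past the test), and their mean level was 9.25 to 11.4 in WT and 11.02 to 12.1 in HEXIM knockdown arrays. WT replicate 3 was the lowest array, and without it 5 of the 6 were positive with a median of 0.15. The list includes the yolk protein genes Yp1, Yp2 and Yp3 and fit, which are expressed mainly in females. In each of these and in Lsp2, but not in Fbp1, WT replicate 3 was the lowest array. In the 5 arrays 5 of the 6 were positive with a median of 0.29. The part that a different share of eye or fat body tissue has in the levels of so, eya, eyg, ey or toy was not tested. Nor was the part that a different share of female flies in the pools may have.

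The genes most like each member over the 8 arrays, among probe sets of 1 symbol with a mean level above the median, were found by Pearson's r. They were neo for ey (r = 0.967), CBP for toy (0.962), bug for eyg (0.990), Khc-73 for so (0.985), Pkn for eya (0.996), Syt12 for dac (0.973), CG43102 for tsh (0.988) and pum for oc (0.947). These points share 8 arrays and the split by the middle minus 3' measure. Each r is the highest among 8042 or 8043 probe sets, and what unrelated genes would reach over 8 arrays was not tested. For eya, 657 of 8043 probe sets had an r above 0.9, against 5 for oc, 6 for toy, 10 for dac and 27 for ey. eyg had 129, so 68 and tsh 189.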

How the data were processed

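The deposited table holds log2 signals per probe set, which the authors normalized and summarised across arrays, the labels naming RMA and Affymetrix Expression Console, the methods GCRMA. They were used as deposited. After leaving out 183 control probe sets, limma (version 3.58.1, R 4.3.3; HEXIM knockdown minus WT, no block) was fitted to 18769 probe sets with Benjamini-Hochberg adjustment and called at an adjusted p under 0.05. The annotation gives 1 symbol to 13646 probe sets, several to 402 and none to 4721. The suffix of the dac probe set (_s_at) marks probes that can match transcripts of more than 1 gene. A listed gene is read by its probe set of highest mean level. Python 3.11.15, numpy 2.4.6, pandas 2.3.3 and matplotlib 3.10.9 made the tables, exact permutation tests and plots. The fit was tested on simulated data. The number of arrays limits the precision.

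The members, the 11 gene lists and the rule for named genes (all members, listed genes that passed or separated the genotypes or otherwise up to 3 of largest difference, 1 most similar gene per member, and Hexim) were chosen with earlier results of these data known. gl, ato, danr, tio and Optix were named in addition for their roles. For each fit 16 alternatives were planned. The values of the gene lists without single arrays or without the 3 arrays of low middle level were added after seeing the data. Replicate numbers did not pair the arrays.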

Additional observations from a re-analysis of the deposited data

Results flagged for a closer look

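In 34 groups of 4 arrays, from 17 named probe sets, 1 group had an array far from the other 3 relative to its range, where chance gives about 1 in 20. For yki, HEXIM knockdown replicate 1 read 7.99, below the 8.10 to 8.12 of the other 3 knockdown arrays. None of the 10 probe sets of the retinal determination genes was so marked.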

How the results depend on the processing

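No probe set of the network passed the test under any of the 16 alternatives (lowest adjusted p = 0.101), and 150 of 159 recomputed log2 differences kept their sign, among them every one of ey, toy, eyg, so and oc. Those of so ran from -0.38 to -0.18, eyg from -0.40 to -0.15 and ey from 0.0946 to 0.177. The middle toy probe set ran from 0.141 to 0.246. The bright one fell to 0.0533 without WT replicate 2 and rose to 0.225 without WT replicate 3, and the dim one ran from 0.119 without HEXIM knockdown replicate 3 to 0.303 without the 3 arrays of low middle level. oc ran from 0.0255 without HEXIM knockdown replicate 3 to 0.203 without WT replicate 3. dac ran from -0.11 to 0.0361 and eya from -0.18 to 0.046 when 1 array was left out, eya being positive only without HEXIM knockdown replicate 4. tsh ran from -0.0446 to 0.0879 in the same fits and had -0.0107 with the middle minus 3' covariate and -0.0244 without the 3 arrays of low middle level. The probe sets with genotypes apart numbered 2 after quantile normalization (dim toy and so), 7 without those 3 arrays, and 1 to 3 when 1 array was left out, of which the middle toy probe set was always 1, and 3 without HEXIM knockdown replicate 4. Over all probe sets the share apart was 5.323%, 26.6% and 6.825% to 11.6% in these settings.

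Over all probe sets the 48 calls became 507 with array weights, 112 with the covariate, 3 without the 3 arrays and 10 to 48 without 1 array. The replicate block left 1 call. Replicate numbers share no source in the labels, and the deviations of same-numbered arrays correlated at -0.11, 0.57, -0.19 and -0.72. The 4 arrays a genotype left 95% intervals as wide as -0.48 to 0.30 (eya), and the dim toy probe set lay near the lower quartile.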

Other observations

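Lists of marker genes for parts of the head outside the retina were read in the same RNA. Of 7 measured mushroom body genes, where ey and dac are used in the adult brain, 6 had a positive log2 difference (median 0.03, from -0.06 to 0.16). Of 6 measured optic lobe genes, 4 were positive, scro, a homeobox gene, being highest at 0.30 (SE 0.15, limma, adjusted p = 0.807). Of 6 antenna genes 4 were positive, with Orco, the odorant co-receptor, at 0.30 (SE 0.15, limma, adjusted p = 0.793). None of these lists held a called gene or one that separated the genotypes over all 8 arrays. In the 5 arrays of higher middle level the medians were -0.03 for mushroom body (3 of 7 positive), -0.02 for optic lobe (3 of 6) and 0.21 for antenna (5 of 6). There 2 mushroom body genes, 0 optic lobe genes and 1 antenna gene separated the genotypes, against 26.6% of all probe sets, and none was called.

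Of 5 glia genes, moody, a receptor of the blood-brain barrier, stood at 10.8 in WT and 10.2 in HEXIM knockdown heads without overlap, a log2 difference of -0.60 (SE 0.10, limma, adjusted p = 0.0730). Among fat body genes Fbp1 alone separated the genotypes, at a log2 difference of 1.17 (SE 0.28, limma, adjusted p = 0.243). Over all probe sets 3.37% separated them with the knockdown lower, as for moody, and 1.99% with it higher, as for Fbp1. Neuron and muscle genes had medians of 0.01 over 5 genes and -0.12 over 4. In the 5 arrays of higher middle level the medians were -0.16 for glia (0 of 5 positive), -0.05 for neuron genes (2 of 5) and -0.36 for muscle genes (0 of 4). In each of these lists 2 genes separated the genotypes there, against 26.6% of all probe sets. None of these genes passed the test.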
